A study of Mus musculus with 14 samples.

Results

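Imprinted genes were examined as a list of 60 mouse genes, and a site belonged to the list where the methylation table gave it the symbol of a member. The rule used no measured value. Of the 60 members, 34 had at least 1 site, and together they held 317 of the 75761 sites. The levels came from reduced-representation bisulfite sequencing (RRBS) of the mammary fat pad of 14 female wild-type C57BL/6NCrl mice, bought at 8 weeks of age. CON-LFD mice (n = 3) ate a diet with 10% of calories from fat throughout. The other mice became obese on a diet with 60% of calories from fat for 15 weeks, and then either stayed on it (DIO-HFD, n = 4), changed to the 10% diet (DIO-LFD, n = 3) or changed to the 10% diet after vertical sleeve gastrectomy, a weight-loss operation on the stomach (DIO-VSG, n = 4). Mice without the operation had a sham operation. All 14 mice received E0771 mammary cancer cells in a fat pad of the opposite side at week 22, so every group was tumor-bearing. The labels name that cell line and cancer as the cell type of these samples, although the tissue labelled is the normal contralateral mammary tissue.

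An imprinted gene is expressed mainly from the copy inherited from a single parent. The choice is written in DNA methylation that is laid down in the egg or the sperm at a control region and is kept on that copy in the body's cells. In a tissue where all cells keep the imprint, a control region has a fully methylated and an unmethylated copy in every cell, so its level is expected midway between none and full. Egg-derived marks are known at Gnas, Grb10, Peg10, Snrpn, Mcts2 and Nnat, and sperm-derived marks are known between Igf2 and H19, between Dlk1 and Meg3 and upstream of Rasgrf1. The list bears on fat tissue because Dlk1 restrains the formation of fat cells, Grb10 dampens insulin signalling, Igf2 is a fetal growth factor, and Gnas encodes the G protein that couples hormone receptors to cyclic AMP.

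To follow the marks along the genome, sites no more than 500 bp from the next were joined into regions of at least 3 sites, and the level of a region in a mouse is the mean over its sites. The members had 32 regions in 18 genes, out of 9047 in the table. Regions of the same gene are lettered along the chromosome (Gnas a to Gnas e). The sequences below show how the measured CpGs lie in the 5 intermediate regions with the most sites, with ties given to the region nearest a transcript start, and at Mcts2, which was added after its values were seen. They were read from the plus strand of mm10 (GRCm38), capitals mark the measured CpGs, and stretches of at most 300 bases are shown.
Gnas c, chr2:174299904-174300203, coding exon: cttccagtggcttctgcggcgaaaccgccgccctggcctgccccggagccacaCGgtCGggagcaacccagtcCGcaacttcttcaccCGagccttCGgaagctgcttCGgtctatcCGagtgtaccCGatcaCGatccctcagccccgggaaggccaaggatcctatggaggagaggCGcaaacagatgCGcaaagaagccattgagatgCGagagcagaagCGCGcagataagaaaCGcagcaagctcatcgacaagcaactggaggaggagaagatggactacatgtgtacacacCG
Dlk1 b, chr12:109459834-109460029, coding exon: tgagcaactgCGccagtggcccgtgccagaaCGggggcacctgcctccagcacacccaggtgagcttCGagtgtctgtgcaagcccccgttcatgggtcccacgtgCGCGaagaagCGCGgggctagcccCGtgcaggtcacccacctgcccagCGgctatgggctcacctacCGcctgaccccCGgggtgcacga
Grb10 a, chr11:12026774-12026866, intron: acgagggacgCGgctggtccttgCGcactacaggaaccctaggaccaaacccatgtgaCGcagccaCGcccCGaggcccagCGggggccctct
Igf2 b, chr7:142664972-142665271, intron of Igf2 and exon of Igf2os: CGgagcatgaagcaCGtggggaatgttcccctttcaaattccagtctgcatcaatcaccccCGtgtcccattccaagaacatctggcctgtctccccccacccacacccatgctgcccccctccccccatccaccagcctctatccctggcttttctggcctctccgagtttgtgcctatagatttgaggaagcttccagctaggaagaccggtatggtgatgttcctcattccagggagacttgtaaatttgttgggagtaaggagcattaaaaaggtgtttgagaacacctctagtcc
Nespas a, chr2:174285629-174285722, intron of Gnas and Nespas: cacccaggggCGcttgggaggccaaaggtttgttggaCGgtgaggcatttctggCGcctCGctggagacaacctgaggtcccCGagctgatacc
Mcts2 a, chr2:152686874-152686944, intron of H13: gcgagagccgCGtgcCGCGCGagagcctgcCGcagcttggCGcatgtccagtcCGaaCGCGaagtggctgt
The Gnas c stretch holds 16 measured CpGs of its 23, and the Dlk1 b stretch holds 11 of 15. At Mcts2 a, 9 of 11 CpGs were measured within a stretch of 71 bp. The Igf2 b stretch holds only 5 CpGs, of which 3 were measured.

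Sites were unevenly spread over the members. Gnas alone had 105 sites, or 33.1% of the total, so every count over sites leans on it. Cdkn1c, which encodes a brake on the cell cycle, had 35 sites. Dlk1 and Grb10 had 18 each, Ago2 had 16, Igf2 had 12, Kcnk9 had 11 and Ndn had 10. Mcts2 had 9 sites, Snrpn 8, Nnat 7, and Cobl, Meg3 and Peg10 had 6 each. Dio3 and Nespas had 5, Osbpl5, Kcnq1 and Peg12 had 4, and H19 and Magel2 had 3. Th, Zrsr1, Peg13, Ppp1r9a, Klf14, Rasgrf1, Tssc4, Phlda2 and Ascl2 had 2 sites, and Calcr, Blcap, Herc3 and Cd81 had 1. No site carried the symbol of Igf2r, Airn, Kcnq1ot1, Peg3, Usp29, Zim1, Mest, Copg2, Sgce, Asb4, Ube3a, Mkrn3, Ddc, Plagl1, H13, Rian, Mirg, Rtl1, Impact, Commd1, Inpp5f, Nap1l5, Trappc9, Dcn, Nap1l4 or Qpct. A symbol is that of the nearest transcript, so a site can lie inside another member: the Mcts2 sites lie in an intron of H13, the Zrsr1 sites in an intron of Commd1 and the Peg13 sites in an intron of Trappc9. In the other direction, the symbol can be distant, as at Herc3, whose site lies 86278 bp from the transcript start, and at Snrpn, whose nearest site lies 23368 bp away. Of the 317 sites, 185 (58.4%) lie in CpG islands, beside 23.8% in the whole table, and 138 (43.5%) lie in promoters, beside 25.8%.

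Over all sites, intermediate levels were more frequent at the imprinted genes than in the table, but not in every genomic context. A mean level over the 14 mice of 40% to 60% was found at 108 of the 317 sites, or 34.1%, and at 22.2% of all 75761 sites. The median site of the list was at 47.1%, whereas that of the table was at 66.5%. The order was the reverse in promoter CpG islands, where 25 of the list's 109 sites (22.9%) and 45.4% of the table's 10403 sites were in the window. Within 5000 bp of a transcript start the gap was smaller, with 36.9% of the list and 31.7% of the table. Levels above 80% were found at 12.9% of the list's sites and at 32.4% of all sites. With genes sorted by the source of their mark, 22 of 41 sites at genes of sperm-derived marks (53.7%) were in the 40% to 60% window. At genes of egg-derived marks it was 67 of 168 (39.9%). The remaining members had 19 of 108 sites in the window, or 17.6%. A site was sorted by its gene symbol, whether or not it lies at the mark itself, and these shares were not split by CCGG. Sites of a gene share reads and mice, so these shares are descriptions and were not tested. The table gives no read counts, and how many reads stand behind a level is unknown.

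**Figure D1:**
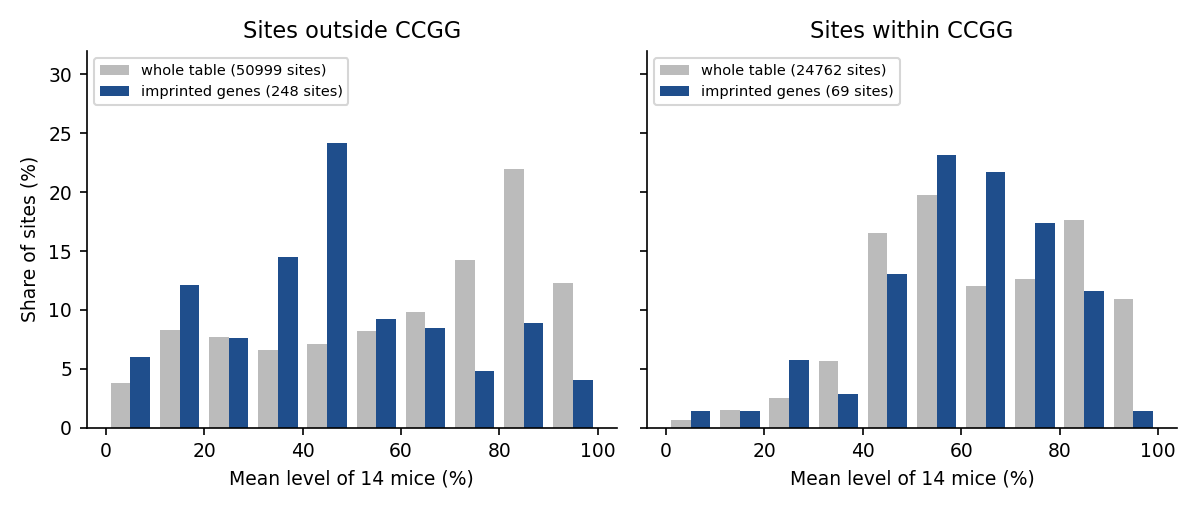
Share of sites by mean methylation level in 14 mice, in steps of 10 percentage points, for the imprinted genes (blue) and the whole table (grey), outside CCGG on the left and within CCGG on the right. Outside CCGG the imprinted genes peak between 40% and 50%, with 24.2% of their sites, whereas the table peaks between 80% and 90%, with 21.9%.

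Intermediate levels were spread differently over sites within CCGG and sites outside it. CCGG is the sequence cut by MspI, the enzyme used to make the RRBS fragments, so these cytosines can lie at a fragment end. Within CCGG, 36.2% of the list's 69 sites and 36.3% of the table's 24762 sites were at 40% to 60%. In CpG islands, 60.7% of the table's sites within CCGG were in the window, with a median of 50.6%, beside 17 of the list's 42 (40.5%), with a median of 58.8%. Outside CCGG in CpG islands it was 18.6% of the table, with a median of 30.0%, and 35.7% of the list's 143 sites, with a median of 35.97%. Outside CCGG, 83 of the list's 248 sites (33.5%) and 15.3% of the table's 50999 sites were in the window. The list thus had the higher share outside CCGG and, in CpG islands, the lower share within CCGG. The sites were split by CCGG after the data were seen, and the differences were not tested. Without Gnas, the share was 30.7% over all 212 remaining sites and 25.8% over the 155 outside CCGG. A level near 50% at a site within CCGG was therefore not read as a sign of imprinting, and what sets it was not tested.

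The same split was seen inside some promoters. At the Grb10 promoter (Grb10 b, 9 sites), the 6 sites within CCGG averaged 47.8% and the 3 others 9.06%. At the promoter of Kcnk9, a potassium channel gene, 4 sites within CCGG averaged 56.05% and 4 others 12.96%. At the promoter of Dio3, the enzyme that inactivates thyroid hormone, 2 sites within CCGG averaged 55.9% and the other site 11.6%. The region there, Dio3 a, has 7 sites, of which 3 carry the Dio3 symbol. At the Kcnq1 promoter, 3 sites within CCGG averaged 53.0%, while the site outside CCGG was at 13.4%. Phlda2, a restrainer of placental growth, had a site within CCGG at 60.4% and a site outside it at 2.84%, and Ppp1r9a had 65.2% and 6.25%. The pair of Klf14 sites, both outside CCGG, were at 6.27% and 9.19%. Outside CCGG, the measured sites at these promoters were thus low, and the higher values came from the sites within CCGG. Gnas d, which lies partly in a promoter, had the other order, with its site within CCGG at 8.23% and the 39 others at 26.6%.

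Of the 32 regions of imprinted genes, 14 (43.8%) had a mean of 40% to 60%, beside 27.7% of all 9047 regions. With only sites outside CCGG counted, 11 of 27 regions with at least 3 such sites (40.7%) were in the window, beside 15.9% of 5898 in the table. The 14 regions were at Gnas (Gnas a and Gnas c), Nespas, Nnat, Peg10, Igf2 (Igf2 a and Igf2 b), Kcnq1, Grb10 (Grb10 a and Grb10 c), Dlk1 (Dlk1 a and Dlk1 b), Meg3 and Ago2. Ago2 a (chr15:73176975-73177137, 4 intronic sites 7704 to 7866 bp from the start) averaged 56.6%, with mice from 46.6% to 63.1%, but 0 of its sites was in the window. The sites outside CCGG were at 24.8% and 66.9% and those within it at 66.2% and 68.5%, so this mean joins sites of unlike levels. The lowest region of the list was Ago2 b, in an intron of the gene of the small-RNA effector Argonaute, at 16.6%. The highest was Peg10 b, in a Peg10 exon 7960 to 8002 bp from the transcript start, at 93.4%.

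**Figure D2:**
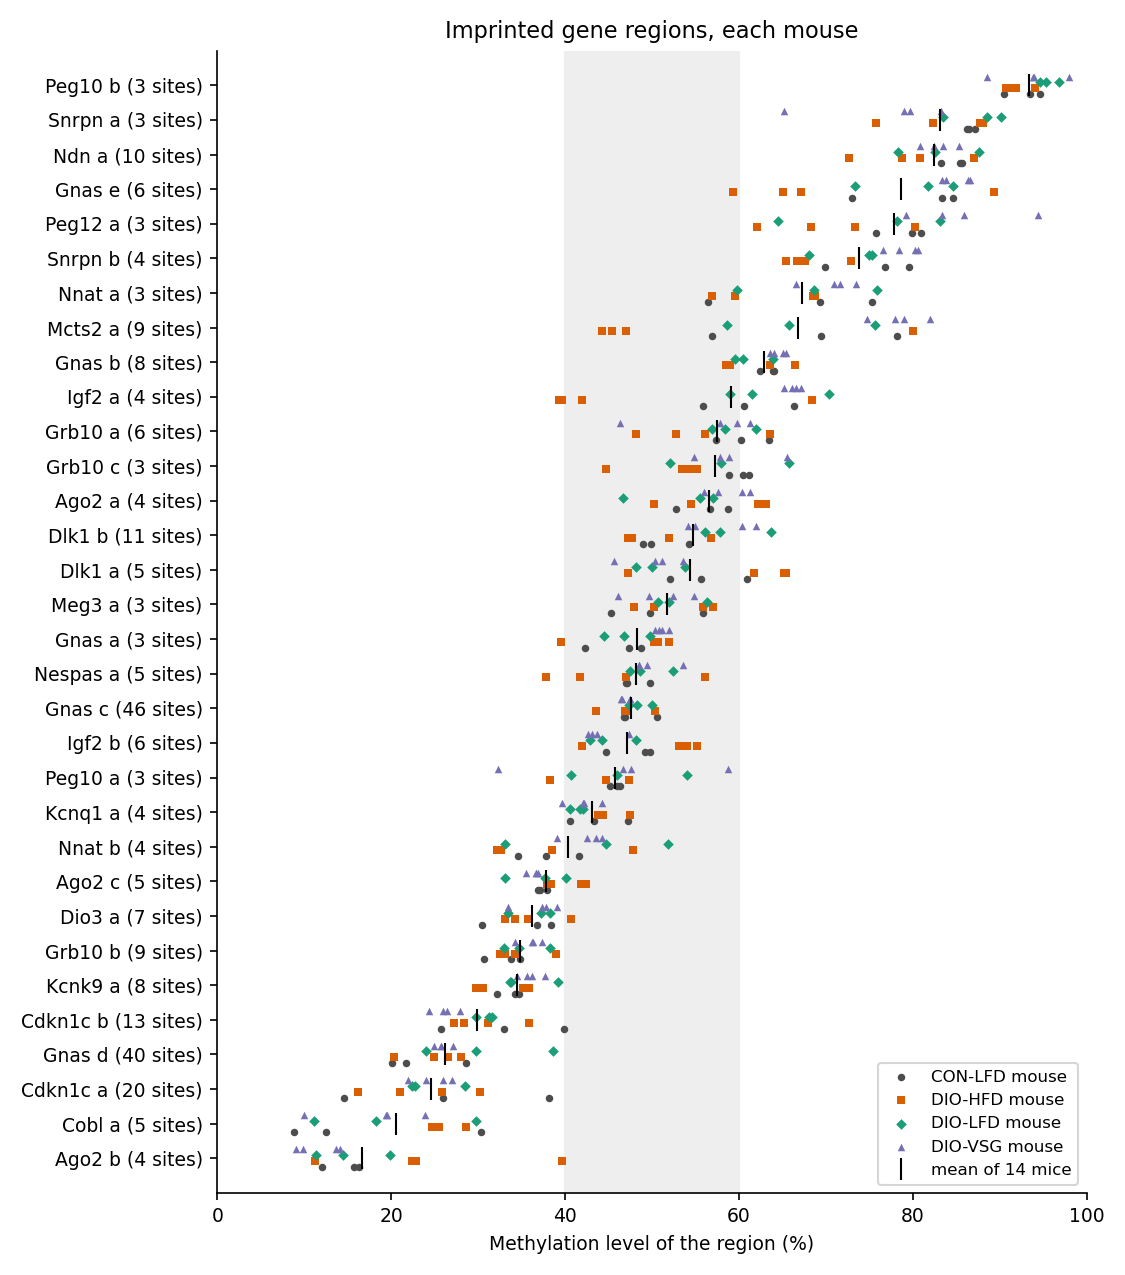
Methylation level of each of the 32 imprinted gene regions in every mouse, ordered by the mean of 14 mice (black bar), with the 40% to 60% window shaded. The bars of 14 regions lie in the shaded window, from Nnat b at 40.3% to Igf2 a at 59.1%, and the points of Gnas c lie between 43.5% and 50.5%.

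The Gnas locus had the densest coverage. The locus has several promoters with different imprints, which give the protein Nesp55, the long G protein form XLαs, the antisense RNA Nespas and the widely expressed G protein subunit itself. Gnas c (chr2:174299142-174300469, 46 sites, all in a CpG island) covers the exon of XLαs. Its level was 50.5%, 46.8% and 46.9% in the CON-LFD mice and 46.9%, 43.5%, 50.4% and 47.1% in the DIO-HFD mice. It was 49.97%, 47.3% and 48.2% in the DIO-LFD mice and 47.4%, 46.5%, 46.4% and 47.5% in the DIO-VSG mice. Over all 46 sites the groups overlapped and no mouse left the window. The 40 sites outside CCGG had means between 38.9% and 48.6% and averaged 43.7%, whereas the 6 within CCGG lay between 60.2% and 82.6%. Over those 40 sites the mice ran from 39.3%, in DIO-HFD replicate 2, to 46.9%. Over the first 16 sites of the region they ran from 35.5% (DIO-LFD replicate 2) to 55.3% (CON-LFD replicate 1). Over the last 26 they ran from 43.1% to 54.5%. These stretches were set after the profile was seen. For the mean of all 46 sites, the standard deviation between mice of a group, pooled over the 4 groups, was 1.92 percentage points. Of the 2506 table regions in the window, 22.5% had a smaller value, but the regions were not matched for their number of sites.

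Further toward the start of the chromosome in the same locus, Gnas a (3 sites, in the coding exon of Nesp55 and an exon of Nespas) had a mean of 48.3%, with sites from 47.7% to 49.3%. Nespas a, 5 sites in an intron, had a mean of 48.2%, with sites from 47.3% to 49.1%. Both regions hold no site within CCGG. Across mice, Gnas a ran from 39.5% to 52.0% and Nespas a from 37.8% to 56.1%. Both lowest values, and the highest of Nespas a, were in DIO-HFD mice. Gnas b, at an XLαs promoter, was higher at 62.9%. Gnas e, 7259 to 7425 bp from a start, was at 78.7%.

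Gnas d (chr2:174328742-174329339, 40 sites in a CpG island) lies around a start of the G protein transcript and showed a step within 598 bp. Its stretch of 6 sites at the upstream end averaged 35.5%, the next 24 sites averaged 30.8%, and the last 10 averaged 9.39%. In the last stretch DIO-HFD mice had 7.21%, 26.5%, 10.96% and 22.9%, and DIO-LFD mice had 2.90%, 6.70% and 2.05%. The DIO-VSG mice had 3.562%, 5.64%, 6.72% and 4.92%, and the CON-LFD mice had 5.85%, 8.73% and 16.8%. The DIO-HFD mice were thus all above the DIO-LFD and DIO-VSG mice in this stretch and overlapped the CON-LFD mice. In the first stretch the order of DIO-HFD and DIO-LFD was the other way, with 26.2% to 33.5% in DIO-HFD mice and 39.1% to 57.6% in DIO-LFD mice, while the DIO-VSG mice, at 31.4% to 41.8%, overlapped the DIO-HFD mice. The stretches were set after the profile was seen and were not tested as units.

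**Figure D3:**
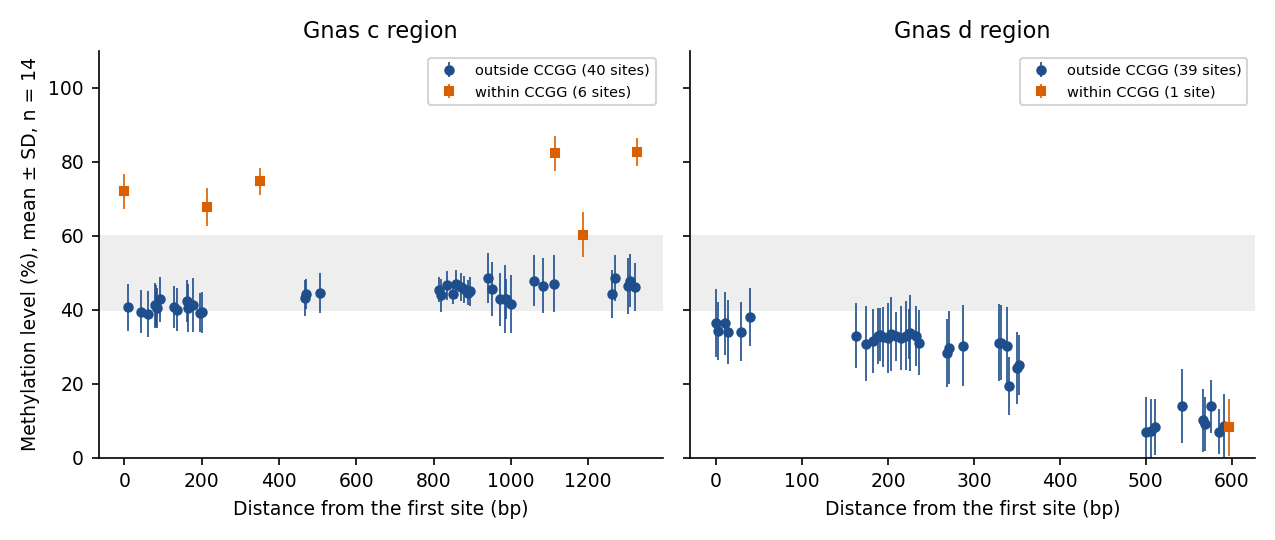
Mean level of each site in 14 mice (bars, SD between the 14 mice) against its distance from the first site of the region, for Gnas c on the left and Gnas d on the right. Sites outside CCGG (blue) stay between 38.9% and 48.6% in Gnas c and step down to 7.1% at the lowest site in Gnas d, and the 6 sites within CCGG (orange) of Gnas c lie higher, from 60.2% to 82.6%.

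Several other regions of genes with egg-derived marks were also midway, but not all, with Mcts2 a at 66.8% and Grb10 b at 34.9%. Peg10 a, 3 sites at the start of the retrotransposon-derived gene Peg10, averaged 45.8%, and DIO-VSG mice alone spread from 32.3% to 58.7%. Nnat b, 4 sites at the start of the neuronatin gene, averaged 40.3%, with mice from 32.2% to 51.8%, but the gene's other region, Nnat a, 1823 to 1871 bp upstream, was at 67.3%. Grb10 a, 6 intronic sites outside CCGG, averaged 57.4%, with mice from 46.3% to 63.5%. Grb10 c, a region of 3 sites, overlaps an exon that the annotation gives as untranslated and runs past the annotated start of the gene. It averaged 57.2%, with mice from 44.8% to 65.8%. The Kcnq1 promoter region was at 43.1%, but its CCGG sites made that mean, as given above. Peg13 had a site outside CCGG at 47.9% and a site within CCGG at 73.3%. Zrsr1 had only sites within CCGG, at 71.9% and 68.2%.

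At the sperm-derived loci, Dlk1 b (chr12:109459844-109460018, 11 sites in a coding exon and a CpG island) averaged 54.7%, with 10 sites outside CCGG at 53.2%. Dlk1 a, 5 intergenic sites 43906 to 44043 bp upstream of Dlk1, averaged 54.4%, with 3 sites outside CCGG at 46.3% and 2 within it at 66.4%. Meg3 a, 3 sites at the start of the maternally expressed RNA Meg3, averaged 51.7%, with mice from 45.3% to 57.0%. Its 2 sites outside CCGG averaged 43.9%, and the site within CCGG was at 67.2%. Igf2 b averaged 47.2%, with sites from 18.9% to 77.1%, so this mean joins sites of unlike levels. Igf2 a, 4 sites at an Igf2 promoter, averaged 59.1%, with 3 sites outside CCGG at 52.6% and the site within it at 78.7%. H19 had no region, but its site 3111 bp upstream of the start, outside CCGG, was at 57.5%, with mice from 48.9% to 64.2%, while sites 649 and 742 bp upstream were at 86.4% and 80.6%. Rasgrf1 had a site 24087 bp upstream at 16.4% and a site within CCGG at the start at 52.6%.

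Regions outside the window fell on both sides, 9 below and 9 above. Both Cdkn1c regions were low, at 24.6% (20 sites at the start) and 29.9% (13 sites, 4062 to 4422 bp upstream). Cobl a, at the start of an actin-nucleator gene, was at 20.6% with mice from 8.8% to 30.3%. Genes of the Prader-Willi cluster were high away from their promoters, with Ndn a at 82.4%, Peg12 a at 77.8%, Snrpn a at 83.1%, Snrpn b at 73.8% and 3 Magel2 sites between 75.4% and 92.6%. Single sites were not all high, since 2 of the 4 Peg12 sites were at 43.4% and 46.4%, the second of them in Peg12 a. The regions lie 10882 bp or more from the Ndn start, 30532 bp or more from the Peg12 start and 23368 bp or more from the Snrpn start. Calcr (94.4%), Th (86.4% and 87.3%), Herc3 (82.0%), Blcap (79.9%) and Osbpl5 (51.6% to 83.6%) were mostly high. Ascl2 had 52.7% and 60.9%, Cd81 42.8% and Tssc4 59.0% and 71.6%, and of these sites all but the second of Tssc4 were within CCGG.

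The spread between mice of a group was then compared at intermediate levels. The 14 intermediate regions of the list had a median within-group standard deviation of 4.67 percentage points, from 1.92 at Gnas c to 8.51 at Igf2 a, and all 2506 intermediate regions of the table had a median of 3.71. For single sites at 40% to 60% the order was the reverse, with a median of 5.63 for the list's 108 sites and of 6.82 for all 16799. Neither difference was tested, and the regions were not matched for their number of sites.

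A sequence feature known from imprint control regions was counted as a description. TGCCGC, searched on both strands, is the motif read at methylated imprints by the zinc-finger protein ZFP57. In windows of 300 bp centred on the regions, it was present in 9 of 32 regions of the list (28.1%) and in 13.03% of all 9047. The motif holds a CpG, and 58.4% of the list's sites lie in CpG islands, beside 23.8% of the table's. The shares were not matched for this and were not tested. The 9 regions were Mcts2 a and Nnat b with 3 matches, Gnas a and Dio3 a with 2, and Gnas c, Grb10 b, Dlk1 b, Ago2 b and Ago2 c with 1. The Mcts2 sequence above holds 2 of its matches. A second motif, the core bound by the protein CTCF at H19, was present in 0 of the 32 regions and in 0.022% of all.

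The diets and the operation were compared next, to ask whether obesity or weight loss went with a change of these levels. Levels were transformed to M values, the log2 of the ratio of methylated to unmethylated share, and fitted with limma over the whole table. An adjusted p here is a Benjamini-Hochberg value over all sites or all regions tested. Of the 317 sites, 260 had a standard deviation of at least 0.05 over the mice and were tested, among 65610 in the table. No imprinted site and no imprinted region was called in any of the 4 comparisons with all 14 mice. The whole table gave next to no calls either: 0% of its sites for CON-LFD against DIO-HFD, and 0.00305% in each of DIO-LFD against DIO-HFD, DIO-VSG against DIO-HFD and DIO-VSG against DIO-LFD. For regions it was 0% in all 4.

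Before adjustment, p was under 0.05 in limma at 8 of the 260 sites (3.08%) for CON-LFD against DIO-HFD, where the table had 7.76%. For DIO-LFD against DIO-HFD it was 54 sites (20.8%), beside 10.1% in the table, and 33 of the 54 were at Gnas, 26 higher and 7 lower in DIO-LFD mice. Of the 54, 39 were higher in DIO-LFD mice, beside 5195 of the table's 6614. With each mouse centred on its median it was 14 of 32, beside 3625 of 6529. For DIO-VSG against DIO-HFD it was 50 sites (19.2%), beside 25% in the table, and for DIO-VSG against DIO-LFD 6 sites (2.31%), beside 3.98%. Of the 32 regions, 2, 3, 9 and 2 had an unadjusted p under 0.05 in the same order (6.25%, 9.38%, 28.1% and 6.25%), where the table had 9.47%, 11.4%, 35.9% and 2.94%. These counts rest on single mice. Without DIO-HFD replicate 1 they were 38, 83, 77 and 20 sites (14.6%, 31.9%, 29.6% and 7.69%), where the table had 30.9%, 32.6%, 44.9% and 6.77%. For DIO-LFD the share of the list was then no longer above that of the table. Without DIO-HFD replicate 4 the 54 and 50 sites became 35 (13.5%) and 29 (11.2%), beside 5.83% and 14.9% in the table. Leaving out each of the 14 mice in turn gave 7 to 38 sites for CON-LFD against DIO-HFD and 3 to 20 for DIO-VSG against DIO-LFD. The table gave 2612 to 20299 and 2197 to 4445 of 65610. Of the list's regions it was 0 to 8, 0 to 7, 6 to 11 and 0 to 4 in the 4 comparisons. Of the table's 9047 it was 379 to 3995, 453 to 4043, 1826 to 5224 and 203 to 696. The comparisons with DIO-HFD share its 4 mice.

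One obese mouse weighed on every comparison with its group. Over all sites of the table DIO-HFD replicate 1 had a mean level of 65.04%, the highest of the 14 mice, and replicates 2 to 4 had 56.9%, 57.4% and 57.3%, the lowest. Over the imprinted sites the 4 DIO-HFD mice had 49.98%, 45.6%, 47.6% and 45.7%, whereas the other 10 mice lay between 48.0% and 50.1%. At the list's sites of 40% to 60% the 14 mice ran from 44.95% to 50.7%, and both ends were DIO-HFD mice. Labels give no reason to set replicate 1 apart, and comparisons are therefore given with it and without it.

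Without DIO-HFD replicate 1, limma called 15 imprinted sites (5.77%) in CON-LFD mice, 38 (14.6%) in DIO-LFD mice and 54 (20.8%) in DIO-VSG mice, each against DIO-HFD; of the table it called 12%, 14.6% and 34.4%. Of the regions, 6 (18.8%), 7 (21.9%) and 9 (28.1%) were called, where the table had 32.3%, 32.7% and 52%. The share called among the imprinted genes was thus at or below that of the table in these 3 comparisons. The called sites for DIO-VSG were 15 at Gnas, all 9 at Mcts2, 5 each at Igf2 and Dlk1, 4 at Ago2, 3 at Osbpl5, 2 each at Meg3, Peg12 and Snrpn and 1 each at Cdkn1c, Cobl, Dio3, Herc3, Ndn, Rasgrf1 and Th.

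Across the regions, the difference between DIO-VSG and DIO-HFD mice depended on the level. In the 9 imprinted regions above 60%, the median difference was 7.23 percentage points higher in DIO-VSG mice and 8 of 9 were higher, beside 6.39 and 88.4% in the table. In the 14 intermediate regions the median difference was 1.60, with 10 higher, beside 0.99 and 62.4% in the table. In the 9 regions below 40% it was 0.91, with 5 higher, beside 1.31 and 58.9%. Counted by sites, the median difference above 60% was 4.45 for the list, with 71.3% higher, beside 6.01 and 82.0% in the table, and below 40% it was 0.29 beside 1.03. Without DIO-HFD replicate 1 the medians of the list were 9.02, 2.58 and 0.89 for its regions above, in and below the window. The table had 8.77, 1.49 and 1.95. For sites above 60% the median was then 6.12, beside 8.24 in the table, and below 40% it was 1.36, beside 1.95. The direction depended on the scaling. In M, 23 of the 32 imprinted regions were higher in DIO-VSG mice, with a median of 0.12, but with each mouse centred on its median 7 were, with a median of -0.33. The median of all regions of the table also fell, from 0.35 to -0.09. In percentage points 75.8% of all regions were higher, beside 71.9% of the list. Of the 260 tested sites 164 were higher in M, and 74 with centring, with medians of 0.17 and -0.32. The table's tested sites had medians of 0.48 and -0.007. Whether the list differed from table features of the same level was not tested.

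**Figure D4:**
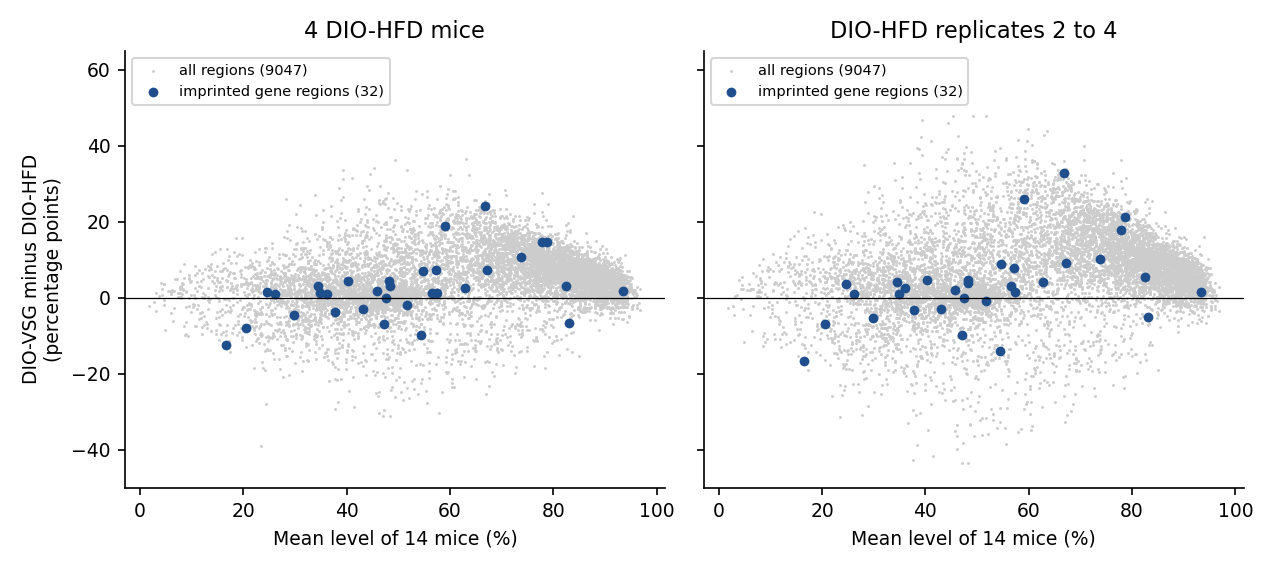
Difference between the DIO-VSG and DIO-HFD group means (percentage points) against the mean level of 14 mice (%), for each of 9047 regions (grey) and the 32 imprinted gene regions (blue), with all 4 DIO-HFD mice on the left and replicates 2 to 4 on the right. The blue points lie among the grey ones, with Mcts2 a the highest of the blue, at 24.3 on the left and 32.9 on the right.

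Mcts2 a had the largest difference of the 32 imprinted regions. Mcts2 is an intronless gene copy inside H13, known for an egg-derived mark at its promoter, and all 9 sites lie 102 to 151 bp upstream of its start. The level was 78.2%, 69.4% and 56.9% in CON-LFD mice, 80.01%, 44.3%, 47.0% and 45.3% in DIO-HFD mice, 75.7%, 58.6% and 65.8% in DIO-LFD mice and 79.0%, 77.9%, 82.0% and 74.8% in DIO-VSG mice. DIO-HFD replicates 2 to 4 were the lowest 3 mice and lay near midway, while replicate 1 was the second highest of the 14. The group means were 54.1% ± 17.3 (SD, n = 4) for DIO-HFD and 78.4% ± 2.997 (SD, n = 4) for DIO-VSG, a difference of 24.3 percentage points (1.53 ± 0.48 SE in M; limma adjusted p = 0.0996). For CON-LFD and DIO-LFD the adjusted p in limma was 0.51 and 0.502. Without replicate 1 it was 0.000545 for DIO-VSG, 0.0135 for CON-LFD and 0.0167 for DIO-LFD.

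Igf2 a, at a promoter of the growth factor gene (chr7:142657342-142657499), also had DIO-HFD replicates 2 to 4 at the bottom. Its level was 60.6%, 66.3% and 55.9% in CON-LFD mice, 68.4%, 39.6%, 41.9% and 39.3% in DIO-HFD mice, 70.3%, 61.5% and 59.0% in DIO-LFD mice and 65.2%, 66.1%, 67.1% and 66.5% in DIO-VSG mice. DIO-HFD replicates 2 to 4 were below all other mice, and replicate 1 was below only a DIO-LFD mouse. The difference was 18.9 percentage points for DIO-VSG (limma adjusted p = 0.0996), 16.3 for DIO-LFD (0.434) and 13.6 for CON-LFD (0.493). Without replicate 1 the adjusted p-values were 0.000275, 0.00213 and 0.00386. Gnas e was also lower in replicates 2 to 4, at 67.2%, 65.1% and 59.3%, than in replicate 1, at 89.3%, and in the DIO-VSG mice, at 83.3% to 86.6% (adjusted p in limma 0.114, and 0.000779 without replicate 1). Peg12 a was at 80.2%, 68.3%, 73.3% and 62.1% in DIO-HFD mice and at 79.2% to 94.4% in DIO-VSG mice. The difference there was 14.7 percentage points (limma adjusted p = 0.0996, and 0.012 without replicate 1).

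Igf2 b and Dlk1 a moved the other way. Igf2 b was at 42.0%, 54.0%, 55.2% and 53.1% in DIO-HFD mice and at 42.7% to 47.4% in DIO-VSG mice, a difference of -6.86 percentage points (limma adjusted p = 0.12, and 0.0026 without replicate 1). Dlk1 a was at 47.2%, 65.5%, 61.7% and 65.2% in DIO-HFD mice and at 45.6% to 53.6% in DIO-VSG mice, a difference of -9.69 (adjusted p in limma 0.107, and 0.0014 without replicate 1). At Dlk1 a replicate 1 lay within the range of the DIO-VSG mice, and at Igf2 b it was just below them and the lowest of all mice. Ago2 b, the lowest region, was at 11.2%, 22.4%, 39.6% and 22.8% in DIO-HFD mice and at 9.1% to 14.1% in DIO-VSG mice (adjusted p in limma 0.0996, and 0.00253 without replicate 1).

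At Snrpn b, DIO-HFD replicate 1 lay within its own group. Snrpn b, the region with the smallest p for both DIO-VSG and CON-LFD against DIO-HFD, was at 66.6%, 72.9%, 65.4% and 67.6% in DIO-HFD mice and at 76.5%, 80.6%, 78.4% and 80.2% in DIO-VSG mice. These groups did not overlap, which adds no support since the region was picked for its small p. The difference was 10.8 percentage points (0.78 ± 0.18 SE in M, limma adjusted p = 0.0996, and 0.00821 without replicate 1). For CON-LFD, at 79.5%, 69.9% and 76.8%, the difference was 7.29 (adjusted p in limma 0.493), and the groups overlapped. Its 4 sites are intergenic, at least 211036 bp from the Snrpn start. Dlk1 b, the coding exon shown above, had the smallest p for DIO-LFD against DIO-HFD. It was at 56.8%, 47.7%, 52.0% and 47.2% in DIO-HFD mice and at 63.7%, 56.1% and 57.9% in DIO-LFD mice, which overlapped by 1 mouse (8.32 percentage points, limma adjusted p = 0.434, and 0.0216 without replicate 1). Between DIO-VSG and DIO-HFD mice the difference at Dlk1 b was 6.94 (limma adjusted p = 0.116, and 0.0186 without replicate 1). For DIO-VSG against DIO-LFD the smallest p was at Snrpn a, with 65.2% to 83.3% in DIO-VSG mice and 83.4% to 90.1% in DIO-LFD mice (limma adjusted p = 0.956).

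**Figure D5:**
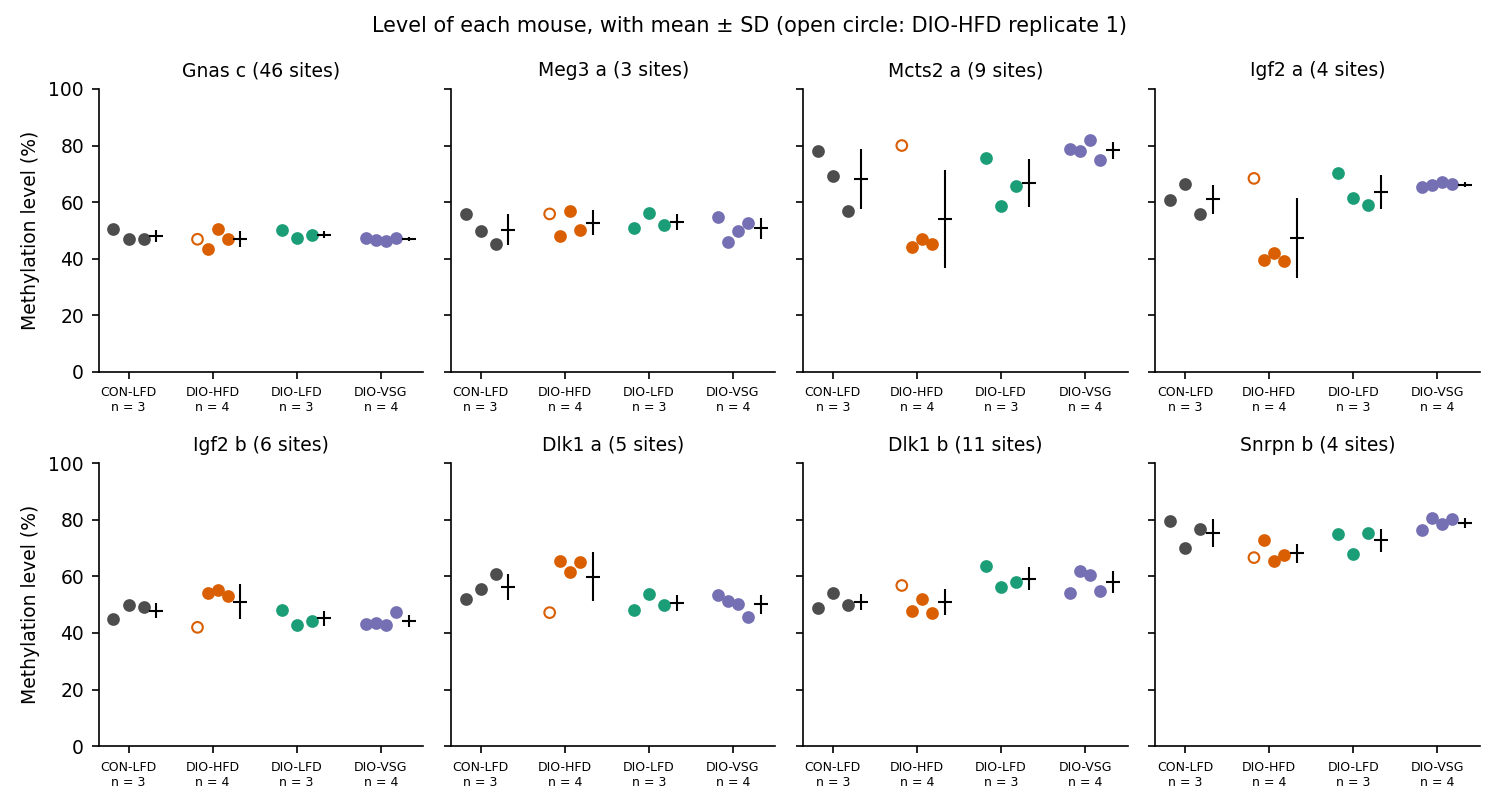
Methylation level (%) of each mouse by group at 8 imprinted gene regions, with the group mean ± SD beside the points and DIO-HFD replicate 1 as an open circle. At Mcts2 a and Igf2 a the open circle lies at 80.01% and 68.4%, above the other DIO-HFD mice, and at Gnas c and Meg3 a all groups overlap.

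At the other intermediate regions the differences were within the spread of the mice or did not pass the test. For Gnas c the difference between DIO-VSG and DIO-HFD mice was 0.00 ± 0.11 (SE) in M, with a limma adjusted p of 0.996. Meg3 a was at 50.8% ± 3.79 (SD, n = 4) in DIO-VSG and 52.7% ± 4.37 (SD, n = 4) in DIO-HFD mice. Nespas a was at 49.97% ± 2.42 and 45.6% ± 7.92, and Gnas a at 51.1% ± 0.69 and 48.1% ± 5.77, in the same groups. Grb10 c was at 59.3% ± 4.53 and 51.9% ± 4.82 (limma adjusted p = 0.141). In CON-LFD mice it was at 58.8% to 61.1%, above the 44.8% to 55.2% of the DIO-HFD mice, a difference of 8.23 percentage points (adjusted p in limma 0.493, unadjusted 0.0459). Peg10 a, Nnat b, Grb10 a, Kcnq1 a and Ago2 a had adjusted p-values in limma of 0.285 to 0.849 for this comparison, and the highest region, Peg10 b, had 0.366.

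Of single sites, the smallest p for CON-LFD against DIO-HFD was at chr7:62335366, 11203 bp upstream of Ndn, with 73.4%, 75.7% and 74.6% in CON-LFD and 44.8% to 57.8% in DIO-HFD mice (limma adjusted p = 0.611). For DIO-LFD it was at chr2:174329311, in the low stretch of Gnas d, with 0%, 5.9% and 0% in DIO-LFD and 12.5% to 25% in DIO-HFD mice (limma adjusted p = 0.43). Without DIO-LFD replicate 2 this site and another of the stretch, at chr2:174329339, were called, 0.769% of the list's tested sites beside 0.0549% of the table. For DIO-VSG it was at chr11:12464870, 12 bp from a Cobl start, with 9.5% to 30.8% in DIO-VSG and 1.5% to 3.8% in DIO-HFD mice (limma adjusted p = 0.15). The groups did not overlap at these 3 sites, but each was picked for its small p, so this adds no support. For DIO-VSG against DIO-LFD it was at chr11:12026797 in Grb10 a, with 51.9% to 67.1% in DIO-VSG and 70.2% to 91.3% in DIO-LFD mice (limma adjusted p = 0.945).

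The genes that write, read, keep or remove the marks were looked at as well. Of 16 such genes, 10 had sites (Ctcf, Dnmt1, Dnmt3a, Dnmt3b, Dnmt3l, Tet1, Tet2, Tet3, Trim28 and Uhrf1), and 0 of their 27 tested sites were called by limma in any comparison. For DIO-VSG against DIO-HFD, 4 were higher and 1 lower at an unadjusted p under 0.05, beside 25% of all tested sites, and this was not tested. Of their 33 sites, 17 (51.5%) were at 40% to 60%, a share above that of the imprinted list. Of 25 further imprinted genes outside the list, 10 had sites, with 16 of 59 (27.1%) at 40% to 60% and 0 called. Marker genes of fat cells, mammary epithelium and lymphocytes had 12, 36 and 30 sites, too few to check the tissue from methylation. Over the fat cell marker sites the mean level was 60.1% to 61.4% in DIO-HFD and 61.9% to 65.4% in DIO-VSG mice, which did not overlap, and 58.5% to 63.1% in CON-LFD and 60.1% to 62.8% in DIO-LFD mice. It rests on 12 sites in 4 genes. The mean level over the epithelial marker sites was 63.5% to 73.9% in DIO-HFD and 69.1% to 72.7% in DIO-VSG mice, and over the lymphocyte marker sites 55.2% to 66.2% and 60.4% to 61.6%. The part of a change in cell types in the values above was not tested.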

How the data were processed

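RRBS of DNA from the mammary fat pad of 14 mice was analysed. Reads were mapped by the authors with Bismark to the mm10 genome and levels were called in methylKit. They left out 2 outlier mice and deposited the level of each site and mouse as a fraction from 0 to 1, the methylated share of its reads, without read counts. The methods also name a removal of sites of low variation, yet 10151 sites have a standard deviation under 0.05 here. Levels are printed in percent. Depth is unknown, so no interval for a level was computed. Samples were grouped by their labels.

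Gene symbols, promoters and CpG islands are those of the table. Exons, introns, untranslated parts and sequences came from GENCODE vM21 and the GRCm38 reference, which has a CpG at all 317 sites (samtools 1.23.1, pysam 0.24.0).

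Levels b became M = log2((b + 0.01)/(1 − b + 0.01)). Sites whose level had an SD of 0.05 or more over the mice and, separately, regions were fitted with limma 3.58.1 in R 4.3.3 (4 groups in 1 model, eBayes). P-values were adjusted over the whole table by the Benjamini-Hochberg method, with a threshold of 0.05. The fit was tested on simulated data.

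Every member with a site is named. Regions described in full are those at 40% to 60%, the lowest and the highest. Per comparison, the site and the region with the smallest p were added, since none passed. Mcts2 a, Gnas b, Gnas d, Gnas e, Peg12 a and the regions given by level only were named after their values were seen. The members and lists were chosen with earlier results of these data known. Figures were drawn with Matplotlib 3.10.9.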

Additional observations from a re-analysis of the deposited data

Results flagged for a closer look

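In groups of 4 mice, DIO-HFD and DIO-VSG, a mouse was set apart where its gap to the nearest other mouse exceeded Dixon's critical share of the group's range. This was tested in 68 groups (32 regions and 2 means in each group), and 7 were set apart. Chance gives about 1 in 20 for independent groups, but these are the same mice measured again and are not independent. The share over all regions of the table was not computed, so no excess at the list can be read from the count. In 3 of them the mouse was DIO-HFD replicate 1, at 80.01% in Mcts2 a (nearest mouse 46.95%), 68.4% in Igf2 a (nearest 41.9%) and 41.98% in Igf2 b (nearest 53.1%). DIO-HFD replicate 2 was apart at 39.5% in Gnas a (nearest 50.2%), and DIO-HFD replicate 3 at 47.5% in Kcnq1 a (nearest 44.4%). DIO-VSG replicate 4 was apart at 35.5% in Ago2 c (nearest 36.6%) and at 48.5% in the mean over the sites of 40% to 60% (nearest 49.3%), both within a narrow range.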

How the results depend on the processing

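With all 14 mice, 0 imprinted sites and 0 imprinted regions were called in the 4 comparisons, and this held with an offset of 0.1, levels untransformed, a trended and robust eBayes, only the groups compared, mice centred on their median, no filter or a minimum of 0.1 on the standard deviation, a gap of 1000 bp, at least 5 sites, and only sites outside CCGG (chosen after seeing the data). Leaving out each mouse in turn, the called sites against DIO-HFD numbered 0 to 15 (CON-LFD), 0 to 38 (DIO-LFD) and 0 to 54 (DIO-VSG), and the called regions 0 to 6, 0 to 7 and 0 to 9. The highest counts came without DIO-HFD replicate 1. Without DIO-LFD replicate 2, 2 Gnas sites were called for DIO-LFD (0.0549% of the table). The cause was not tested. For DIO-VSG against DIO-LFD the count stayed at 0. Counts at an unadjusted p under 0.05 moved as well. For DIO-LFD, 54 of the 260 tested sites became 33 with only the groups compared, while the table's 6614 of 65610 became 3070. With centred mice it was 32, of which 14 and not 39 were higher, beside 6529 in the table. A minimum of 0.1, which tests fewer sites, gave 6 of 40, beside 1779 of 15066.

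Replicate numbers were not taken as pairs, since the labels give them no meaning and r was over 0.1 in 4 of 19 same-number pairs (-0.080 to 0.202). It was over 0.1 in 2 of 54 other pairs, and 8 of 14 mice were closest to their own number, a hint of pairing from the data. With a replicate block 0 sites and 0 regions were called.

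The share of 34.1% at 40% to 60% became 42.9% with 35% to 65% and 17.03% with 45% to 55%, by construction, and 28.5% over the sites that were tested. It was 36.9% within 5000 bp of a start, where the table had 31.7% beside 22.2% over all its sites, and leaving out each mouse gave 32.8% to 34.7%. Of 1509 refits of the 71 named differences, 78 had the other sign, none with a call, and 18 gained a call.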
